A study of Mus musculus with 11 samples.

Results

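The proteasome is described here through the genes that encode it: every row of the deposited table whose symbol starts with Psma, Psmb, Psmc, Psmd, Psme, Psmf or Psmg. There were 48 such genes among the 10885 in the table, and all 48 are counted below. Psmb8, Psmb9, Psmb10, Psme1 and Psme2, which interferons induce, were kept apart from the other 43. By role, the 48 comprised 7 alpha ring genes, 4 non-catalytic, 3 constitutive catalytic and 3 inducible catalytic beta ring genes, 6 ATPases and 3 other subunits of the 19S base, 8 subunits of the 19S lid, 3 chaperones of 19S assembly and 4 of 20S assembly. The remainder were the activator genes Psme1 and Psme2, 2 further activator genes (Psme3 and Psme4), the inhibitor Psmf1, and 2 genes caught by the prefix only: Psme3ip1, whose product binds an activator, and Psme2b, a near-identical copy of Psme2. Psma8 and Psmb11, which encode subunits best known from testis and thymus, were not among the genes of the deposited table and could not be analysed.

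The 20S proteasome is a barrel in which outer alpha rings control entry and inner beta rings hold the proteolytic sites, and the 19S particle binds ubiquitinated proteins, unfolds them with its ATPases and feeds them in. In lymphoid tissue the constitutive catalytic subunits encoded by Psmb5, Psmb6 and Psmb7 are replaced in new particles by those encoded by Psmb8, Psmb9 and Psmb10, which gives the immunoproteasome and favours peptides that suit MHC class I molecules. Psme1 and Psme2 encode the alpha and beta chains of PA28, a ring that caps the barrel in place of the 19S particle and is also induced by interferon gamma. Plasma cells, which make large amounts of protein, are known to depend on proteasome activity.

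RNA of dissociated cells from whole spleens and whole lymph nodes (LN) of 6 mice was sequenced. Mice 1 and 2 were wild type (Wt). Mice 3 and 4 were transgenic for 3'RR-BCL2 (Tg), a construct named for the regulatory region 3' of the immunoglobulin heavy chain locus and the anti-apoptotic gene BCL2. Mice 5 and 6 were Igk-BCL2 knock-in animals (KI), named for the kappa light chain locus. Both elements are active in B lineage cells, so these are models of BCL2 in that lineage. Animals of all 3 genotypes had received sheep red blood cells by intraperitoneal injection 3 times over 3 months, and tissue was taken 1 month after the last injection. The sources used here give no ages. They name 2 RNA extraction kits for every library without tying either to a sample, so the part of the kit in the differences was not tested. Mouse 3 gave an LN library only, so 11 libraries formed 5 groups of 2 and 1 group (spleen Tg) of 1, and 5 mice had both tissues. Depth was 11128568 to 24110325 reads per library over the genes of the table. The lowest member count in any library was 57 reads. The 48 genes together took 0.367% to 0.468% of a library's signal. Immunoglobulin genes took 0.662% to 2.49% of the signal in Wt and Tg libraries and 5.25% to 9.46% in KI libraries.

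Values are the authors' normalised signal, that is, read counts divided by 1 factor per library. Differences are on the scale log2(signal + 1) and come from limma fitted to all 10885 genes. A gene is said to have risen or fallen, or to be called, where its Benjamini-Hochberg adjusted p over all genes was under 0.05. The SE comes from the same fit. With 1 or 2 animals in a group, p-values rest on a spread estimated across groups and genes.

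The genes whose RNA differed between the tissues in the results below are introduced here by the DNA around their transcription starts, beside that of the constitutive gene Psmb5 for contrast. Each promoter runs from 250 bases before to 50 bases after the start, 5′ to 3′ on the strand of the gene, and comes from RefSeq on GRCm38.p6, which is another build than the authors' GRCm39. Capitals mark matches, on either strand, to GAAANNGAA (core of the interferon-stimulated response element), TTCNNNGAA (gamma-activated site) or TGACNNNGC (core of the antioxidant response element, which NRF1 and NRF2 bind).
Psme1, chr14:55578244-55578543, plus strand: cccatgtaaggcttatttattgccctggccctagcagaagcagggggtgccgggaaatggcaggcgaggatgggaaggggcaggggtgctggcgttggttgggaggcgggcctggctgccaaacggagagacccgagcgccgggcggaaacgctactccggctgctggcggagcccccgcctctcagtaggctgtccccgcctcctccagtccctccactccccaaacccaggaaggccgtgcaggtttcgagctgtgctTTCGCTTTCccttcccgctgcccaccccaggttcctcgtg
Psme2, chr14:55591052-55591351, minus strand: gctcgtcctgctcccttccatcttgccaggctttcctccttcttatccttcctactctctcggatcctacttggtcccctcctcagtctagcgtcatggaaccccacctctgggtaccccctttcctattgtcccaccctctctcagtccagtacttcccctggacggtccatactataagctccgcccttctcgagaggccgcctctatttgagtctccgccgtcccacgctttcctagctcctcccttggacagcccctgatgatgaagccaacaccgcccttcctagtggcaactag
Psmb8, chr17:34197945-34198244, plus strand: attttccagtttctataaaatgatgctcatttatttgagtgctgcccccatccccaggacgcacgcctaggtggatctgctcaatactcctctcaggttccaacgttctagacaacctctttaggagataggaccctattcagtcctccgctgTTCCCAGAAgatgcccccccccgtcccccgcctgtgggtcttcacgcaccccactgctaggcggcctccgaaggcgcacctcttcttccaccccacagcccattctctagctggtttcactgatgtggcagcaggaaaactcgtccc
Psmb10, chr8:105938343-105938642, minus strand: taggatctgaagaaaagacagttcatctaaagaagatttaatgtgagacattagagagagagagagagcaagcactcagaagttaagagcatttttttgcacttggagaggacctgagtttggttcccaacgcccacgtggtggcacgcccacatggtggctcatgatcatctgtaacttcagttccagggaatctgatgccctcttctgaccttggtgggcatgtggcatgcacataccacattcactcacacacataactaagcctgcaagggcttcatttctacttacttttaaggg
Psmb5, chr14:54617946-54618245, minus strand: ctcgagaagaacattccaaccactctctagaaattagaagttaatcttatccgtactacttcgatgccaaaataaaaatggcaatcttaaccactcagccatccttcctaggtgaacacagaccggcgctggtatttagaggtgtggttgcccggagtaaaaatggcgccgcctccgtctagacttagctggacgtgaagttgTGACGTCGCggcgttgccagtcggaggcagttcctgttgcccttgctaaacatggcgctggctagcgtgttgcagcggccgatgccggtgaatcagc
Of the 48 genes, 41 had at least 1 promoter in the RefSeq table, 45 promoters in all. The interferon element occurred in 15.6% of these and in 8.55% of all 32817 promoters of the table. Among the 5 inducible genes Psme1 alone held it, as TTCGCTTTC from base 11 after the start, and Psmb8 alone held a gamma-activated site, as TTCCCAGAA from base -97. The gamma-activated site occurred in 6.67% of member promoters against 8.29% of all. For the antioxidant element the shares were 13.3% and 12.4%. It was absent from the windows of the 5 inducible genes and present in those of Psmb5, as TGACGTCGC from base -47, and Psmb6, as TGACGGAGC from base -9. The other members with the antioxidant element were Psmc6, Psmd9, Psmd12 and Psme4, and Psmb7 had no promoter in the RefSeq table. These letter matches describe the windows only.

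The proteasome genes varied less across the 11 libraries than the median gene. The standard deviation of log2(signal + 1) over all libraries had a median of 0.15 over the 48 genes, against 0.23 over all genes. Of all genes, 23.45% lay below the median of the members, and genes of like signal were not compared apart. Psmd13, a lid subunit with signals of 1164 to 1333, had the lowest member value, 0.072, and Psma7, an alpha ring subunit, the highest, 0.32. The median of the 5 inducible genes was 0.23, and 5 members lay above the median of all genes. Between the 2 libraries of a group, the log2 differences of the members had a standard deviation of 0.11 to 0.13 in 4 of the 5 groups with 2 libraries and of 0.31 in LN Tg. Those of all genes ranged from 0.45 to 0.92.

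Some libraries lay at the edge of the range for many members. LN of Tg mouse 3 was the highest of the 11 libraries for 26 of the 48 members, against 10.1% of all genes. The lowest library was LN of Tg mouse 4 for 12 members, spleen of KI mouse 5 for another 12 and spleen of Wt mouse 1 for 11, against 11.8%, 11.3% and 7.60% of all genes. Between the 2 LN libraries of Tg 7 members differed by more than 0.5 in log2, and none did so in any other group. Psma7 had 959.6 in mouse 4, while the other 10 libraries ran from 1562 to 2205. The base ATPase genes Psmc6 (734.3 against at least 849.7) and Psmc1 (1209 against at least 1535) and the catalytic gene Psmb7 (654.1 against at least 712.7) were also lowest there, whereas Psmb5 was highest (821.2 against at most 680.4). The LN values for Tg below rest on the libraries of mice 3 and 4. Many proteasome genes also have processed pseudogenes, and reads shared with such copies could be split by the authors' counting. The part of such copies in the values above was not tested.

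**Figure D1:**
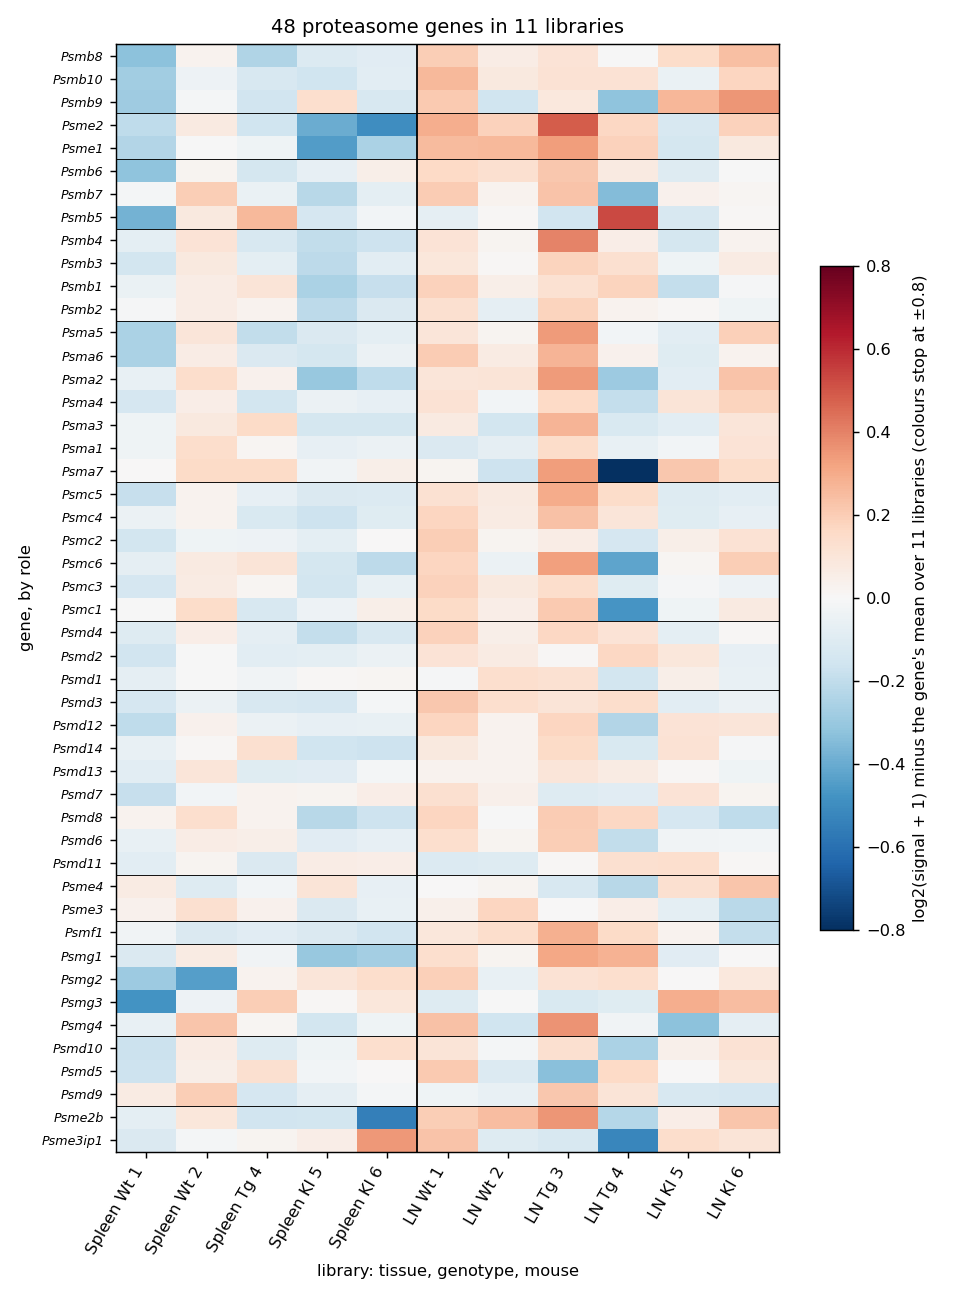
Signal of the 48 genes (rows, grouped by role and parted by lines) in the 11 libraries (columns: tissue, genotype, mouse), as log2(signal + 1) minus the gene's mean over all 11 libraries, red higher and blue lower. The top 5 rows, the inducible genes, are mostly red in LN and blue in spleen, and Psma7 stands out in LN of Tg mouse 4, where its signal was 959.6.

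With all libraries in the fit, limma called more members between the tissues than in any other comparison. Psme1, Psme2, Psmb8 and Psmb10 rose in LN relative to spleen, by 19% to 33% in signal, while none of the other 43 genes was called. In this comparison the fit used tissue and genotype as additive terms, and 15.1% of all genes were called, 6.05% as higher in LN. Called as higher were 4 of the 5 inducible genes. None was called lower. Among the other 43 genes, 0 were called by limma and 8 had an unadjusted p under 0.05, as had 2934 of all 10885 genes. The median difference of the other 43 was 0.082, against 0.29 for the 5 inducible genes and 0.014 for all genes. This comparison set 6 LN libraries against 5 of spleen, while KI minus Wt set 2 against 2 in each tissue. For Psme1 the SE was 0.072 here and 0.13 in each KI minus Wt comparison. Its differences were 0.33 here, and -0.29 (LN) and -0.23 (spleen) for KI minus Wt. Counts of calls thus differ in precision and do not rank the sizes of these differences. No KI difference over both tissues was fitted.

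Psme1 had a signal of 3771 and 4444 in Wt spleen, 4335 in Tg spleen, and 3267 and 3731 in KI spleen. In LN it was 5301 and 5328 in Wt, 5595 and 5049 in Tg, and 4029 and 4697 in KI. Within each genotype the LN libraries lay above the spleen libraries without overlap. The share of all genes with such separation between tissues was not counted, for this gene or for Psme2 and Psmb10 below. The fitted difference was 0.33 (SE 0.072, adjusted p 0.00827, limma), and LN was higher in 5 of 5 mice, by 0.22 to 0.49. LN was higher in all 5 mice for 12.4% of all genes.

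Its partner in the PA28 ring, Psme2, had a signal of 2635 and 3189 in Wt spleen, 2707 in Tg spleen, and 2301 and 2147 in KI spleen. LN values were 3704 and 3436 in Wt, 4227 and 3403 in Tg, and 2772 and 3433 in KI. Again no spleen library reached an LN library of its own genotype. The difference was 0.41 (SE 0.088, adjusted p 0.00767, limma), with LN higher in 5 of 5 mice, by 0.11 to 0.68. Reads of Psme2 and its copy Psme2b can be split between the genes by the authors' counting. Psme2b, with a difference of 0.32 (SE 0.11), was not called (adjusted p 0.0899, limma), and the sum of both genes gave 0.39 (SE 0.090, adjusted p 0.0115, limma). Psme1 and Psme2 lie close together in the RefSeq order on chromosome 14, with only Emc9 between them.

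Psmb8, the inducible chymotrypsin-like subunit that takes the place of Psmb5, had a signal of 3255 and 4165 in Wt spleen, 3463 in Tg spleen, and 3790 and 3842 in KI spleen. In LN the values were 4680 and 4255 in Wt, 4419 and 4082 in Tg, and 4521 and 4833 in KI. The Wt groups came closest, with 4165 in spleen of mouse 2 against 4255 in its LN. The fitted difference was 0.29 (SE 0.072, adjusted p 0.0179, limma). LN was higher in 5 of 5 mice, but by 0.031 in mouse 2 and by 0.24 to 0.52 in the others.

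Psmb10, which takes the place of Psmb7, had a signal of 1849 and 2182 in Wt spleen, 2048 in Tg spleen, and 2008 and 2120 in KI spleen. LN libraries gave 2687 and 2373 in Wt, 2431 and 2429 in Tg, and 2161 and 2528 in KI. The groups did not overlap within a genotype. The difference was 0.25 (SE 0.071, adjusted p 0.0325, limma), in 5 of 5 mice, by 0.11 to 0.54.

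The third inducible catalytic gene, Psmb9, which takes the place of Psmb6, differed in this. It had a signal of 2326 and 2804 in Wt spleen, 2546 in Tg spleen, and 3108 and 2590 in KI spleen, and in LN of 3270 and 2537, 3005 and 2266, and 3398 and 3614 in the same order of genotypes. LN was higher in 3 of 5 mice. The difference of 0.19 (SE 0.10) was not called (adjusted p 0.280, limma). The genes of all 3 inducible catalytic subunits were largest in LN relative to spleen in mouse 1, with 0.49 to 0.54.

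The constitutive counterparts gave smaller values. Psmb6 had a tissue difference of 0.17 (SE 0.085, adjusted p 0.243), Psmb7 of 0.075 (SE 0.10, adjusted p 0.720) and Psmb5 of 0.036 (SE 0.12, adjusted p 0.908), all by limma and none called. Psmb5 turned negative, at -0.041, without spleen of mouse 1, and at -0.025 without LN of mouse 4. Alpha ring genes lay between -0.095 and 0.20, the ATPases between 0.016 and 0.15, the lid between 0.023 and 0.17, and the chaperones of 20S assembly between -0.021 and 0.21. LN was higher in all 5 mice for 4 of the 5 inducible genes, for 3 of the other 43 (6.98%: Psma6, Psmc4 and Psmc5) and for 12.4% of all genes.

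**Figure D2:**
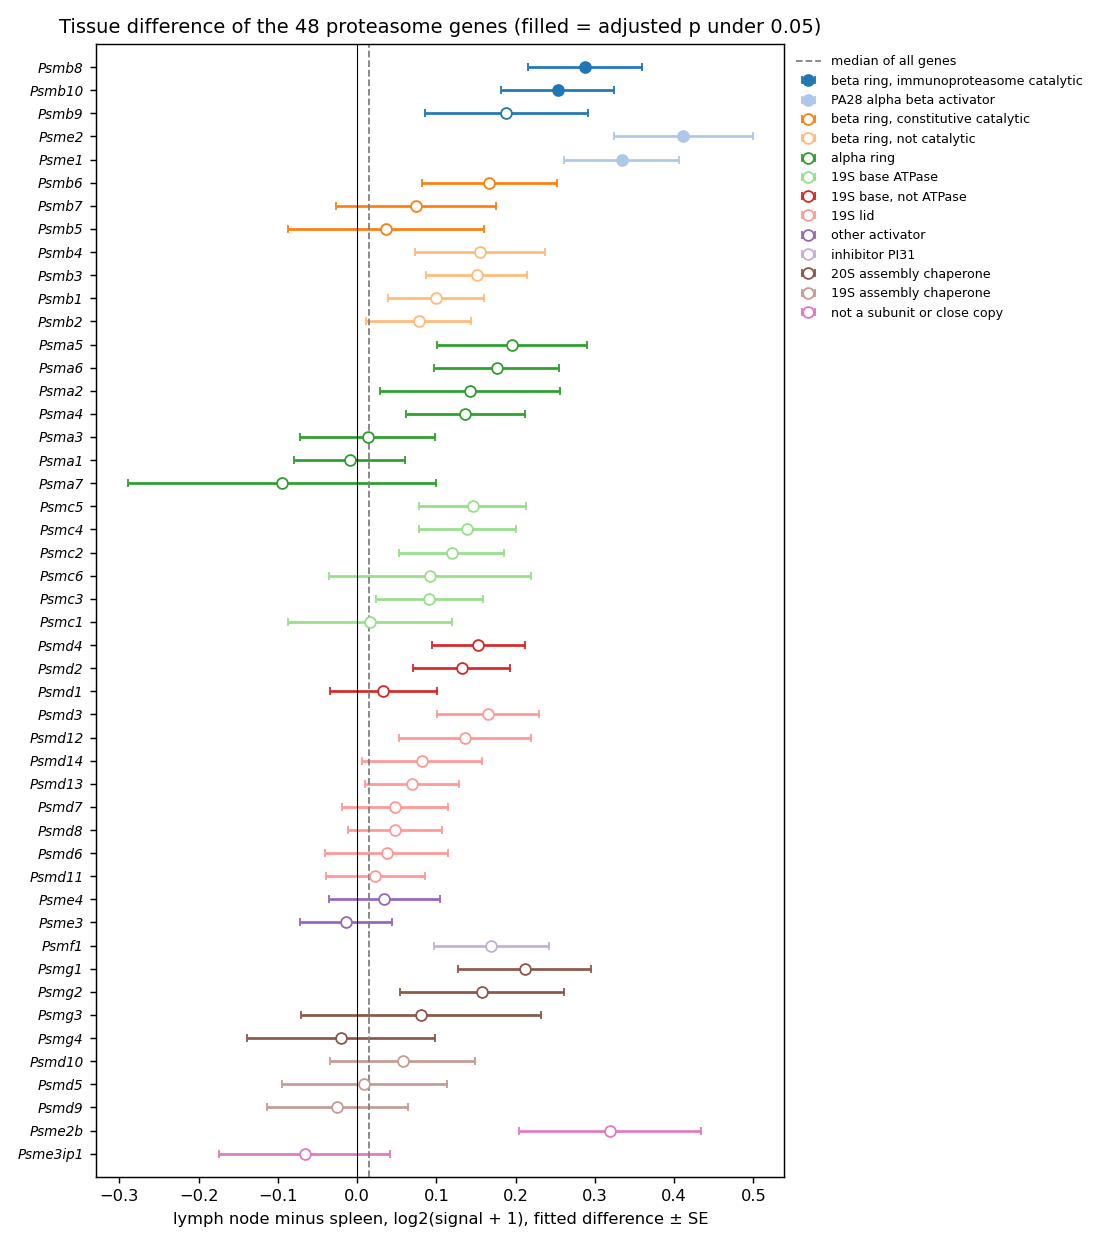
LN minus spleen for each of the 48 genes on the log2(signal + 1) scale (horizontal axis), as fitted difference with its SE, ordered and coloured by role. Filled points, which are Psmb8, Psmb10, Psme1 and Psme2, had an adjusted p under 0.05, and the dashed line is the median of all genes at 0.014.

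Not every fit called all 4 genes. Psme1 and Psme2 were called in each of the alternatives run for this comparison. Psmb8 and Psmb10 were not called when mouse was a fixed term (adjusted p 0.0588 and 0.0710, limma), so that this fit, which compares spleen and LN within each mouse, called 2 members in place of 4. Without both tissues of mouse 1, mouse 4 or mouse 6, or without spleen of Tg mouse 4, 2 members were called as well. Psmb10 was further lost without spleen or LN of mouse 1, LN of mouse 2, LN of mouse 4, spleen of mouse 5, LN of mouse 6, or both tissues of mouse 2, and Psmb8 without both tissues of mouse 5.

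Within a library, the mean log2(signal + 1) of the 5 inducible genes was set against the mean of 31 constitutive core genes (alpha ring, other beta ring, base and lid), which cancels any factor shared by a library. This difference was 1.08 and 1.18 in Wt spleen, 1.11 in Tg spleen, and 1.16 and 1.09 in KI spleen. In LN it was 1.37 and 1.30 in Wt, 1.28 and 1.32 in Tg, and 1.27 and 1.41 in KI. The highest spleen library, at 1.18, lay below the lowest LN library, at 1.27, and LN exceeded spleen in 5 of 5 mice, by 0.11 to 0.32. The mean of the core genes themselves ran from 10.30 to 10.49 in spleen and from 10.37 to 10.60 in LN, and was lower in LN than in spleen in mice 2 and 4. These are descriptions with no test, and as gene length is not divided out they compare libraries, not genes.

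**Figure D3:**
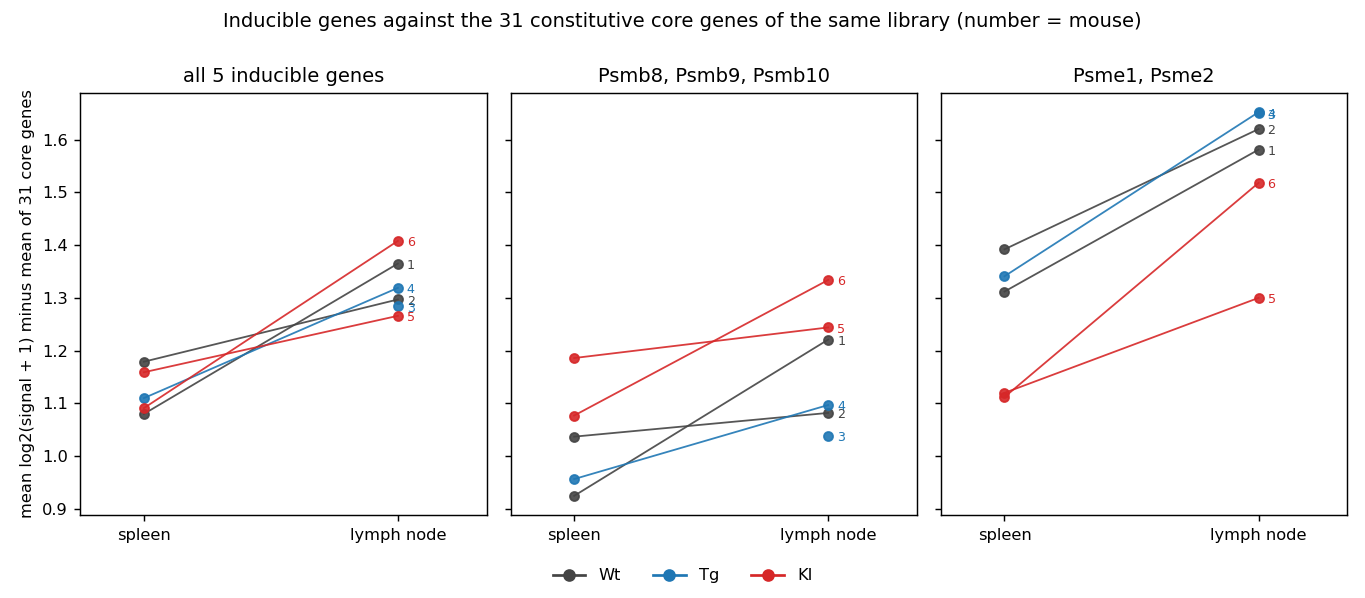
Mean log2(signal + 1) of the inducible genes minus the mean of 31 core genes of the same library (vertical axis) in spleen and LN, with lines joining the tissues of 1 mouse, numbers naming the mouse and colours the genotype. The left panel, with all 5 inducible genes, shows no overlap between tissues (at most 1.18 in spleen, at least 1.27 in LN), and the middle and right panels show the catalytic genes and the PA28 genes apart, with KI high in the former and low in the latter.

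Levels of different genes can be set side by side only per length. As signal per kilobase of the principal GENCODE M21 transcript, Psme1 (4779), Psme2 (3711) and Psmb8 (2744) held the first places among the 48 genes in Wt LN, and Psmg3, a chaperone of 20S assembly, the last (107.8). With the length of all merged exons in place of the transcript, a choice made after the data were seen, Psme1 and Psme2 still led, and Psmb8 ranked 4. Psmb8 exceeded Psmb5 per kilobase by 2.75 to 4.79 times over the 11 libraries (1.32 to 2.31 times with merged exons), and Psmb10 exceeded Psmb7 by 1.99 to 3.29 times (4.51 to 7.45 times). Psmb9 stood at 0.754 to 1.28 times Psmb6 (0.653 to 1.11 times), so that no order between these is given. For 2 of the 3 pairs the inducible gene thus had the higher level in every library under both lengths.

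Genes that act beside the proteasome were read from lists. Against 6.05% of all genes called as higher in LN than in spleen, 4 of 12 genes for MHC class I peptide loading rose and 0 fell. They include Nlrc5, a transactivator of MHC class I genes (0.53, SE 0.12, adjusted p 0.00863), the peptide-trimming enzyme gene Erap1 (0.29, SE 0.074, adjusted p 0.0196) and the peptide transporter gene Tap2 (0.21, SE 0.055, adjusted p 0.0243), all by limma. Tap1, which lies between Psmb9 and Psmb8 in the RefSeq order on chromosome 17, with Tap2 on the other side of Psmb8, gave 0.18 (SE 0.061) and was not called (adjusted p 0.0740, limma). Among 17 measured interferon response genes 2 rose and 0 fell: Gbp2 (0.60, SE 0.13) and Ifit2 (1.05, SE 0.27). Of the genes for regulation through NRF1 and NRF2, 1 of 8 fell (Mafg, -0.61, SE 0.12), and of the other proteasome-bound factors 1 of 9 (Ube3c, -0.36, SE 0.11). None of 13 ubiquitin and shuttle genes was called. Ubqln2 came nearest, at 0.20 (SE 0.067, adjusted p 0.0645, limma).

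Cell type markers differed between the tissues as well. The 8 T cell markers all rose in LN, and 7 of 8 B cell, 7 of 8 macrophage and 7 of 8 neutrophil markers fell. Of all genes, 15.1% were called, 6.05% as higher in LN. Dendritic cell markers went both ways, with Fscn1 higher (2.35, SE 0.41) and Itgax lower (-1.40, SE 0.22). The summed signal of the T cell markers was 13570 to 28810 in spleen and 24270 to 58200 in LN, that of the B cell markers 82070 to 123700 and 54030 to 86950, and that of the macrophage markers 5501 to 6924 and 1030 to 2799. Neutrophil markers summed to 1535 to 45570 in spleen and 69.3 to 1610 in LN, where Ly6g was at 0 in at least 1 library. The part of these markers in the tissue differences of the inducible genes was not tested. In bulk tissue, fewer cells of a type and less RNA per cell cannot be told apart.

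Few proteasome genes passed the test between KI and Wt, against a large share of all genes. In LN, 26.0% of all genes were called between KI and Wt, and none of the 48 members was. Limma gave 4 members an unadjusted p under 0.05, as it did 4115 of all 10885 genes. On recovered reads, edgeR and DESeq2 also called 0 members. In spleen, 16.8% of all genes were called and 1 member was, Psmg2. The median difference of the members was -0.055 in LN and -0.064 in spleen, against -0.024 and 0.0056 for all genes. With immunoglobulin and haemoglobin genes removed before scaling, the median of all genes moved by 0.13 in LN, to 0.11, and that of the members to 0.080, and 1 member was called as higher, the lid gene Psmd11. Directions of KI differences smaller than this shift depend on the scaling.

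Psmg2, a chaperone of alpha ring assembly, rose in KI spleen. Its signal was 271.1 and 244.6 in Wt spleen, 338.6 in Tg spleen, and 355.9 and 366.8 in KI spleen, so that the Wt libraries lay below the other 3. Both KI libraries lay above both Wt libraries in spleen for 34.43% of all genes. KI minus Wt was 0.49 (SE 0.15, adjusted p 0.0432, limma). In LN, Psmg2 had 379.0 and 318.3 in Wt against 332.6 and 352.8 in KI, and the difference between the effects in the tissues, -0.51 (SE 0.21), was not called (adjusted p 0.278, limma). Leaving out either Wt or either KI spleen library ended the call, with adjusted p-values of 0.105 (without Wt mouse 1), 0.209 (Wt mouse 2), 0.144 (KI mouse 5) and 0.185 (KI mouse 6), all by limma. Leaving out the LN library of KI mouse 5 or of KI mouse 6, which enter through the shared spread, did so too.

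The PA28 genes stood lower in KI than in Wt in both tissues, but not past the threshold. With the values given above, KI minus Wt for Psme1 was -0.29 in LN (SE 0.13, adjusted p 0.117) and -0.23 in spleen (SE 0.13, adjusted p 0.233), by limma. For Psme2 it was -0.21 in LN (SE 0.15, adjusted p 0.329) and -0.38 in spleen (SE 0.15, adjusted p 0.0969), again by limma. For both genes and in both tissues, no KI library reached the lower Wt library, but the margin was small for Psme2 in LN, with 3433 in KI mouse 6 against 3436 in Wt mouse 2, and for Psme1 in spleen, with 3731 against 3771. Such separation is common with 2 libraries a group: 34.8% of all genes in LN and 31.9% in spleen had both KI libraries below both Wt libraries. After removal of immunoglobulin and haemoglobin genes the 4 values were -0.15, -0.14, -0.075 and -0.29, in the order given.

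Among the inducible catalytic genes, Psmb8 and Psmb9 had values above 0 in both tissues, and Psmb10 below 0 in LN only. Psmb9 gave 0.28 in LN (SE 0.17, adjusted p 0.259) and 0.15 in spleen (SE 0.17, adjusted p 0.576), and both KI libraries of LN, at 3398 and 3614, lay above both Wt libraries, as held for 32.02% of all genes. Psmb8 gave 0.067 in LN and 0.052 in spleen (SE 0.13 each), and Psmb10 gave -0.11 and 0.039 (SE 0.12 each). Of the constitutive counterparts, Psmb5 gave -0.025 and 0.074 (SE 0.21 each), Psmb6 -0.20 and 0.14 (SE 0.12 each) and Psmb7 -0.090 and -0.24 (SE 0.17 each), in LN and spleen in that order. None of these genes was called, and the values of Psmb5, Psmb8 and Psmb10 in either tissue, of Psmb7 in LN and of Psmb6 in spleen turned sign under at least 1 alternative.

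**Figure D4:**
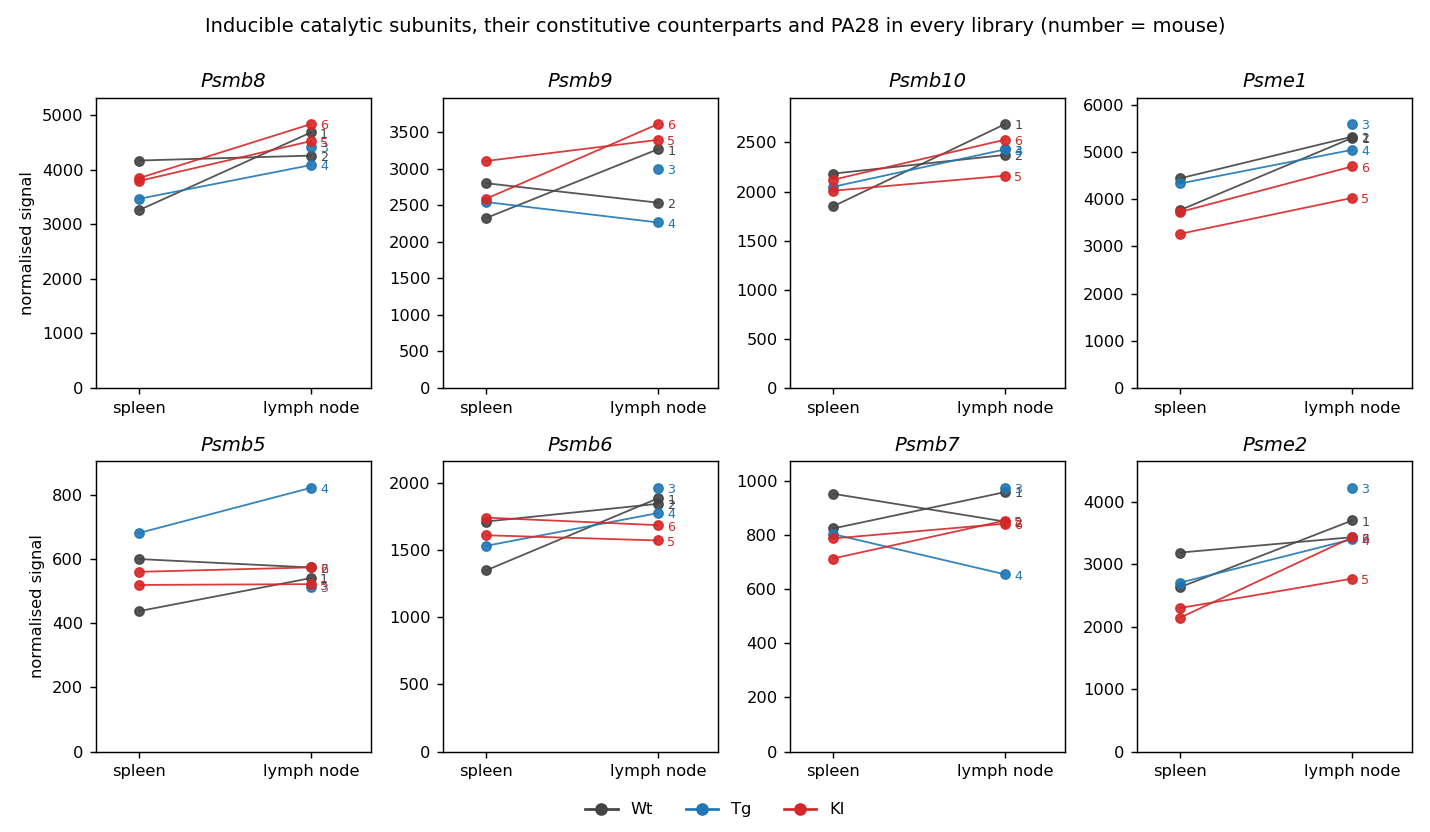
Normalised signal (vertical axes, from 0) of the 3 inducible catalytic genes, their constitutive counterparts below them, and the PA28 genes Psme1 and Psme2 in spleen and LN, with lines joining the tissues of 1 mouse, numbers naming the mouse and colours the genotype. In the Psme1 and Psme2 panels the KI spleen libraries (at most 3731 and 2301) lie below those of the other genotypes, and in the Psmb9 panel LN of KI lies highest (3398 and 3614).

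The PA28 genes were also set against the 31 core genes of the same library. In spleen their mean difference from the core was 1.31 and 1.39 in Wt, 1.34 in Tg, and 1.12 and 1.11 in KI. In LN it was 1.58 and 1.62 in Wt, 1.65 and 1.65 in Tg, and 1.30 and 1.52 in KI. KI minus the Wt mean was -0.24 in spleen and -0.19 in LN, which is smaller in size than the median of the fitted values of the 2 genes (-0.31 and -0.25), since the mean of the core genes itself differed by -0.070 in spleen and -0.058 in LN. For Psmb8, Psmb9 and Psmb10 the corresponding values were 0.92 and 1.04 in Wt spleen, 0.96 in Tg spleen, 1.19 and 1.08 in KI spleen, 1.22 and 1.08 in Wt LN, 1.039 and 1.097 in Tg LN, and 1.24 and 1.33 in KI LN. KI exceeded the Wt mean here by 0.15 in spleen and 0.14 in LN, a difference that includes the lower core mean in KI. The mean over all 5 genes differed between KI and Wt by -0.0039 in spleen and 0.0060 in LN. These within-library values are descriptions with no test.

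**Figure D5:**
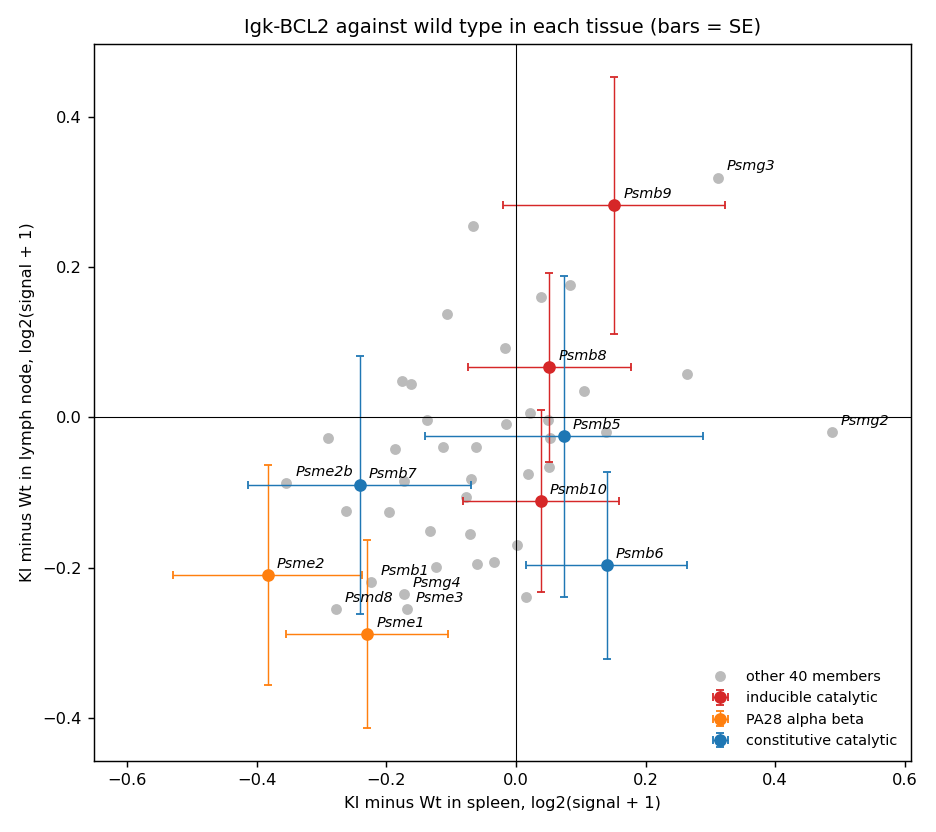
KI minus Wt in spleen (horizontal axis) and LN (vertical axis) for the 48 genes on the log2(signal + 1) scale, with SE bars for the catalytic and PA28 genes and grey points for the other 40. Psme1 and Psme2 lie at the lower left, Psmb9 at the upper right, and Psmg2, at 0.49 in spleen, is the called gene.

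In 2 members the 4 KI libraries all lay below the 7 Wt and Tg libraries, and in none did they lie above. The same held for 9.82% and 12.2% of all genes. Both were found after their values were seen. Psmd8, an essential lid subunit, had 1620 and 1686 in KI spleen and 1721 and 1641 in KI LN, while the other libraries ran from 1888 to 2180. KI minus Wt was -0.25 in LN (SE 0.10, adjusted p 0.0887) and -0.28 in spleen (SE 0.10, adjusted p 0.0834), by limma and not called. Psme3, which encodes the nuclear PA28 gamma ring, had 2370 and 2462 in KI spleen and 2431 and 2209 in KI LN, and at least 2574 elsewhere. Its difference in LN was -0.26 (SE 0.10, adjusted p 0.0879, limma). With immunoglobulin and haemoglobin genes removed, Psmd8 gave -0.12 in LN and -0.19 in spleen, and Psme3 -0.12 in LN. The lid gene Psmd3 gave -0.24 in LN (SE 0.096, adjusted p 0.0934, limma).

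Against Tg, the KI genotype called 3 members in LN, where 26.7% of all genes were called. Psmd8 fell, from 2180 and 2118 in Tg to 1721 and 1641 in KI, a difference of -0.35 (SE 0.10, adjusted p 0.0253). Psmc5, an ATPase of the base, fell from 1833 and 1652 to 1385 and 1407, or -0.32 (SE 0.11, adjusted p 0.0490). Psme4, which encodes the PA200 activator, rose from 1187 and 1111 to 1421 and 1514, or 0.35 (SE 0.11, adjusted p 0.0347). These p-values are from limma. On recovered reads, edgeR called 0 members and DESeq2 called 1, Psmd8. With immunoglobulin and haemoglobin genes removed 2 members were called, Psme4 and Psme3ip1, both as higher, and with quantile normalisation 4, all as lower: Psmc5, Psmd8, Psmd9 and Psmg1. Leaving out LN of KI mouse 5 or of KI mouse 6 called 0 members. Leaving out LN of Tg mouse 3 called 7 (Psma7, Psmb5, Psmb9, Psmc1, Psmc6, Psme3ip1 and Psme4, 6 higher and 1 lower, without Psmd8 and Psmc5), and leaving out LN of Tg mouse 4 called 3, Psmb4, Psmc5 and Psmd8, all lower. Psmc5 was also lost without either Wt library of LN or either KI library of spleen. In spleen, 7.71% of all genes and 0 members were called between KI and Tg by limma, with 1 member, Psmb1, at an unadjusted p under 0.05 (-0.32, SE 0.13). Psme1 (-0.31, SE 0.15) and Psmd14 (-0.29, SE 0.14) followed. The 8 catalytic and PA28 genes ran from -0.30 (Psme2) to 0.43 (Psmb9) in LN and from -0.34 (Psmb5) to 0.16 (Psmb9) in spleen. None was called with all libraries in the fit, but Psmb5 and Psmb9 were in LN without Tg mouse 3.

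Whether KI acted differently in the 2 tissues was tested as the difference of the KI minus Wt effects. It called 0.955% of all genes and 0 members by limma, in a fit with no term for mouse. With mouse as a fixed term, limma called 485 genes as higher and 104 as lower, and 0 members. In the reported fit Psmg2, given above, was the only member at an unadjusted p under 0.05, against 1584 of all 10885 genes. Psmb6 (-0.34, SE 0.18) and Psmd3 (-0.26, SE 0.14) came next. The 8 catalytic and PA28 genes ran from -0.34 (Psmb6) to 0.17 (Psme2).

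Between Tg and Wt limma called 0 members, and 0.0% of all genes, in LN as in spleen. In LN, edgeR on recovered reads called 0 genes, and DESeq2 called 28 genes and 0 members. There limma gave 532 of all 10885 genes an unadjusted p under 0.05. Unadjusted p-values under 0.05 fell to 1 member in each tissue, Psme3ip1 in LN (-0.39, SE 0.16) and Psmg2 in spleen (0.39, SE 0.18). Psme4 (-0.19, SE 0.11) and Psmd7 (-0.18, SE 0.10) followed in LN, and Psmd9 (-0.27, SE 0.15) and Psmg3 (0.46, SE 0.29) in spleen. The 8 catalytic and PA28 genes lay between -0.18 (Psmb7) and 0.22 (Psmb5) in LN and between -0.14 (Psmb7) and 0.41 (Psmb5) in spleen. Spleen Tg is 1 library, so its spread was assumed to be that of the other groups.

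Against the 26.0% of all genes called between KI and Wt in LN, interferon response genes were called often. Of 17 measured interferon response genes, 14 rose in KI LN relative to Wt and 0 fell, among them Oas1a (2.65, SE 0.24), Stat2 (1.08, SE 0.11) and Irf7 (2.59, SE 0.25), with adjusted p-values of 5.18e-05 to 0.000307 by limma. None of the 5 inducible proteasome genes was called in the same libraries, with values from -0.29 (Psme1) to 0.28 (Psmb9) and SE of 0.12 to 0.17. With only 5 genes, 0 calls do not set them apart from the 26.0% of all genes called. In KI spleen 3 of the 17 rose, Stat2 (0.49, SE 0.11) among them, and 2 fell: Irf1, a transcription factor that induces Psmb9 and Tap1 (-0.90, SE 0.13, adjusted p 0.00183, limma), and Gbp2 (-0.69, SE 0.17). Of the 12 MHC class I loading genes none was called between KI and Wt. The nearest were Tap1 in LN (0.26, SE 0.10, adjusted p 0.0916) and Nlrc5 in spleen (-0.50, SE 0.16, adjusted p 0.0590), by limma, and in KI LN against Tg 3 rose: Tap1 (0.43, SE 0.10), Canx (0.40, SE 0.10) and Pdia3 (0.51, SE 0.15).

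Genes of the remaining lists were called in KI LN no more often than all genes (26.0%): 2 of 8 regulators through NRF1 and NRF2, 1 of 9 proteasome-bound factors and 1 of 13 ubiquitin and shuttle genes. In KI spleen, against 16.8% of all genes, the counts were 3, 0 and 1. Of the 8 genes for NRF1 and NRF2 control, Ddi2, whose product cuts NRF1 into its active form, rose in KI LN (0.48, SE 0.13) and Mafk, a small partner of NRF factors, fell (-0.88, SE 0.26). In KI spleen Nfe2l1, the gene of NRF1 itself, rose (0.43, SE 0.12), and Mafk (-1.79, SE 0.26) and Maff (-4.52, SE 0.69) fell. Of 9 further proteasome-bound factors, Ube3c, a ubiquitin ligase, rose in KI LN (0.86, SE 0.15). None was called in KI spleen, where the assembly factor gene Pomp came nearest (-0.39, SE 0.13, adjusted p 0.0627, limma). Of 13 ubiquitin and shuttle genes, Ubqln2 fell in KI LN (-0.45, SE 0.10) and Ubb, a polyubiquitin gene, in KI spleen (-0.44, SE 0.13).

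Cell type markers moved with the KI genotype as well. In LN, where 26.0% of all genes were called, 8 of 8 plasma cell and 7 of 8 germinal centre markers rose. There 8 of 8 T cell and 5 of 8 macrophage markers fell. B cell markers went both ways in LN, with Ms4a1 higher (0.97, SE 0.16) and Fcer2a lower (-1.22, SE 0.17). So did dendritic cell markers, with Flt3 higher (1.04, SE 0.16) and Fscn1 lower (-1.76, SE 0.26). In spleen, where 16.8% of all genes were called, 7 of 8 plasma cell and 4 of 8 germinal centre markers rose. There 6 of 8 T cell markers fell. The proliferation list had 6 of 8 genes higher in KI LN and 1 of 8 lower in KI spleen. Summed plasma cell markers had a signal of 6733 to 8361 in Wt LN and 143600 to 148600 in KI LN, and of 18600 to 18700 in Wt spleen and 76960 to 125000 in KI spleen. T cell markers summed to 53880 to 58200 in Wt LN and 24270 to 30870 in KI LN, and to 27650 to 28810 and 13570 to 14400 in spleen. No plasma cell or T cell marker was at 0 in any library. The part of these markers in the KI values of the proteasome genes was not tested.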

How the data were processed

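The deposited table holds, per the submitters' processing notes, the output of a workflow naming STAR 2.5, featureCounts, Subread 1.4.6, DESeq2 1.26.0 and FastQC 0.11.5, with GRCm39 as the build; their order and settings are not stated there, nor are annotation, strand setting or gene filter. The authors deposited a normalised signal per gene and library, read from the values as counts divided by 1 factor per library. In all 11 libraries 100% of values were whole multiples of 1 step within 0.05 reads, and multiples of the step were taken as reads. A further check on low values alone passed for the 6 LN libraries. The 5 spleen libraries held too few low values for it, so their depth rests on the first check and count tests were run on LN alone. Each gene reached at least 109.3 in a library, so weaker genes could not be examined.

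Differences were fitted on log2(signal + 1) with limma 3.58.1 in R 4.3.3 (trend and robust; 6 group means, 5 residual degrees of freedom; for tissue, genotype and tissue, 7), with Benjamini-Hochberg adjustment over 10885 genes and a threshold of 0.05. A count test had not been chosen as the main test because the values are normalised. Scripts were tested on simulated data. Alternatives were a pseudocount of 0.1 or 5, rescaling after 196 immunoglobulin and haemoglobin genes had been taken out, quantile normalisation, a filter at the 0.25 quantile of mean signal, 1 tissue only, mouse as a block, each library or mouse left out, and edgeR 4.0.16 and DESeq2 1.42.0 on recovered LN reads. Merged exon lengths and the sum of Psme2 and Psme2b were chosen after seeing the data.

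Sample numbers in the labels pair spleen and LN of 1 mouse. Deviations of paired libraries from their group means correlated at 0.40 (Wt) and 0.90 (KI) over all genes and at 0.010 and -0.079 over the 48 members. The reported tissue fit held no term for mouse. As an alternative, spleen against LN within mice was fitted with mouse as a fixed term.

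Members, gene lists and rules were chosen with earlier results of these data known. The naming rule took Psmb8, Psmb9, Psmb10, Psme1, Psme2, Psmb5, Psmb6 and Psmb7, the called members or the 3 of smallest p, and from each list up to 3 called genes or else 1. In comparisons with Tg and in the difference of the KI effect between tissues these 8 genes are given by their range. Promoters are from RefSeq on GRCm38.p6, lengths from GENCODE M21, matched by identifier for 48 members.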

Additional observations from a re-analysis of the deposited data

How the results depend on the processing

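Psme1 and Psme2 kept the LN call in every alternative of the tissue comparison. With mouse as a replicate block and fixed term the tissue comparison called 2 members (2 of the 5 inducible genes) in place of 4. With a random term it called 4, and the block changed no other call on members. The within-mouse correlation estimated for the random term was 0.0168 in the fit of group means and -0.128 in the tissue fit. A value near 0 leaves a fit almost as it was without the block. Leaving out 1 library or mouse gave 2 to 5 called members for tissue (2 to 4 of the 5 inducible genes), 0 to 1 for KI against Wt in spleen and 0 to 7 for KI against Tg in LN. KI against Tg in LN called 0 members in a fit on 1 tissue only, 0 with edgeR and 1 with DESeq2 on recovered reads. Removing immunoglobulin and haemoglobin genes called 1 member for KI against Wt in LN, and turned Psmb10 to 0.023, Psmb5 to 0.11 and Psmb7 to 0.044 there. It also moved the calls over all genes in LN from 1502 higher and 1331 lower to 2066 and 879, in spleen from 830 and 1003 to 1427 and 816, for KI against Tg in LN from 1580 and 1330 to 2046 and 1032 and in spleen from 365 and 474 to 776 and 438 (654 and 528 with quantile normalisation). In LN quantile normalisation turned the balance the other way. It gave 1237 higher and 1420 lower for KI against Wt, and 1288 and 1511 for KI against Tg. The alternatives did not all test the same genes: the low-value filter tested 8163, and removal of immunoglobulin and haemoglobin genes left 10689. Of the counts below, the 1010 for tissue came with that filter, and the 589 for the KI effect with mouse as a fixed term. Over every alternative the genes called in the table numbered 1318 to 3295 for KI against Wt in LN (2833 as reported), 624 to 2428 in spleen (1833), 1228 to 3078 for KI against Tg in LN (2910), 258 to 1433 in spleen (839), 3 to 589 for the KI effect between tissues (104), 1010 to 1742 for tissue (1645), and 0 to 28 and 0 to 7 for Tg against Wt in LN and spleen (0 each).

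Uncalled values that changed sign with single libraries or mice omitted ranged, for KI minus Wt in LN, from -0.0017 to 0.14 (Psmb8), -0.22 to 0.0021 (Psmb10) and -0.094 to 0.043 (Psmb5). In spleen they ranged from -0.13 to 0.23 (Psmb8), -0.081 to 0.16 (Psmb10), -0.15 to 0.30 (Psmb5) and -0.033 to 0.31 (Psmb6), and for LN minus spleen from -0.041 to 0.11 (Psmb5). The cause was not tested. The other combinations of a named member and an alternative kept their sign.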
